A study of Mus musculus with 9 samples.

Results

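The genes described here encode the nuclear subunits of the mitochondrial respiratory chain and ATP synthase, grouped by complex. They were taken by gene symbol (Ndufa, Ndufb, Ndufc, Ndufs and Ndufv genes, Sdha to Sdhd, the Uqcr genes and Cyc1, Cox4 to Cox8 genes, and Atp5 genes) from the probe sets that name a single gene, and 90 of the 19938 genes tested met the rule. Several probe sets were present for 17 of the 90 genes, and each of these genes was represented by its brightest probe set on average. The symbols gave 36 genes of complex I, 4 of complex II, 9 of complex III, 17 of complex IV and 17 of complex V, and they also took in 7 Ndufaf genes, which encode assembly factors of complex I and not subunits. The rule takes genes by symbol, but it was chosen with earlier results of these data known. No gene was left out of the tests for a low signal.

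The respiratory chain sits in the inner mitochondrial membrane. Complex I (NADH dehydrogenase) and complex II (succinate dehydrogenase, which is also an enzyme of the citric acid cycle) pass electrons to ubiquinone, complex III passes them on to cytochrome c, and complex IV (cytochrome c oxidase) passes them to oxygen. Complexes I, III and IV pump protons, and complex V (ATP synthase) lets the protons return through its ring of c subunits to drive ATP synthesis in its F1 head. Neurons draw most of their ATP from this pathway, and the nuclear genes of the subunits are known to share transcriptional regulators of the NRF1, GABP and ERR families.

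Total RNA was measured on Affymetrix mouse gene arrays, 1 per sample, in 3 groups of 3 samples that the labels call biological replicates. The groups were B6SJLF1/J wild-type mice given PBS, 5xFAD mice given PBS (called vehicle below), and 5xFAD mice given human amylin, a peptide hormone that the pancreas releases with insulin. All mice were about 5 months old and came from The Jackson Laboratory, and the injections were intraperitoneal and daily for 10 weeks. The 5xFAD line carries a human APP transgene with familial Alzheimer mutations under the neuronal Thy1 promoter, so it models amyloid deposition driven by overexpression. The design compares vehicle 5xFAD mice with wild type, and amylin with vehicle within 5xFAD. Amylin was given to 5xFAD mice only in the samples used here.

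Values are deposited log2 signals, and the arrays had medians from 5.71 to 5.79. Precision is limited by the number of arrays: for the 90 genes, as for all genes, a difference between groups had a median standard error (SE) of 0.07 log2. Within groups, the median standard deviation (SD) was 0.079 for the 90 genes and 0.088 for all genes. A gene is called higher or lower at an adjusted p under 0.05 in limma's two-sided moderated test, adjusted by Benjamini-Hochberg over all 19938 genes. Probe sets differ in their affinity, so signals are compared between arrays for a gene and not between genes. In tissue RNA, fewer cells of a type and less RNA per cell cannot be told apart.

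The series describes the tissue as cortex. All 9 measured cortical excitatory neuron markers lay above the median signal of all genes. So did all 10 striatal and all 10 thalamic markers, and this count therefore does not tell the regions apart. Of the 9 cortical markers 3 were called lower in vehicle 5xFAD mice (background 4.92%) and 0 higher (background 3.66%). Their differences ran from -0.62 to 0.57 log2, with a median of -0.08. The samples also differed in markers of neighbouring regions. In vehicle 5xFAD mice all 10 measured striatal neuron markers rose (median 1.54 log2) and all 10 thalamic neuron markers fell (median -0.98). Relative to the wild-type mean, the mean of the striatal list lay between -0.15 and 0.10 in wild-type, 1.40 and 1.64 in vehicle and 1.39 and 1.53 in amylin arrays, so that the genotypes did not overlap. The thalamic list lay between -0.14 and 0.13 in wild-type, -1.11 and -0.93 in vehicle and -1.30 and -0.63 in amylin arrays. All 11 measured microglia markers rose as well (median 1.11 log2), with list means between -0.01 and 0.01 in wild-type, 1.35 and 1.94 in vehicle and 1.18 and 1.64 in amylin arrays. In every comparison with wild type below, genotype and this regional and cellular makeup cannot be told apart.

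In vehicle 5xFAD mice, respiratory chain genes differed from wild type by about as much as other genes. The median absolute difference was 0.07 log2 for the 90 genes and 0.07 for all genes tested. Of the 90 genes, 4 were called (4.44%, against 8.58% of all genes): Atp5g2 rose (1.11% of the 90, against 3.66% of all genes called higher), and Sdha, Uqcrc1 and Ndufa10 fell (3.33%, against 4.92% called lower). The share called lay below that of all genes. By mean signal only 8 of the 90 genes lay in the lower 50% of all genes, and the sets were not compared at like signal. Mean signals were higher than in wild type for 45 genes (50%, against 45.9% of all genes) and lower for 45. At an unadjusted p under 0.05 there were 14 genes (15.6%, against 21.2%), and the 3 vehicle arrays did not overlap the 3 wild-type arrays for 26 genes (28.9%, against 26.8%), of which 12 were higher (background 11.2%) and 14 lower (background 15.6%). Differences ran from -0.24 to 0.33 log2, and the 95% interval of each of the 90 differences lay within 1.5-fold of no change, with 59 of them within 1.2-fold. The intervals were not counted in this way over all genes.

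The medians of the complexes lay near 0. Over all 90 genes the median difference was 0.00 log2, against -0.01 for all genes tested. It was 0.01 for complex I, -0.06 for its assembly factors, -0.04 for complex II, -0.01 for complex III, 0.02 for complex IV and 0.00 for complex V. With quantile normalization repeated on the genes, the median of all 90 genes was 0.035, that of complex III turned to 0.056 and that of complex V was 0.057, while complex II was at -0.005 and the assembly factors were at -0.042. In the mean over genes per array, complex II was the furthest from wild type, at -0.11, -0.02 and -0.067 in the 3 vehicle arrays against 0.023, 0.023 and -0.047 in the wild-type arrays, and these ranges overlapped.

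**Figure D1:**
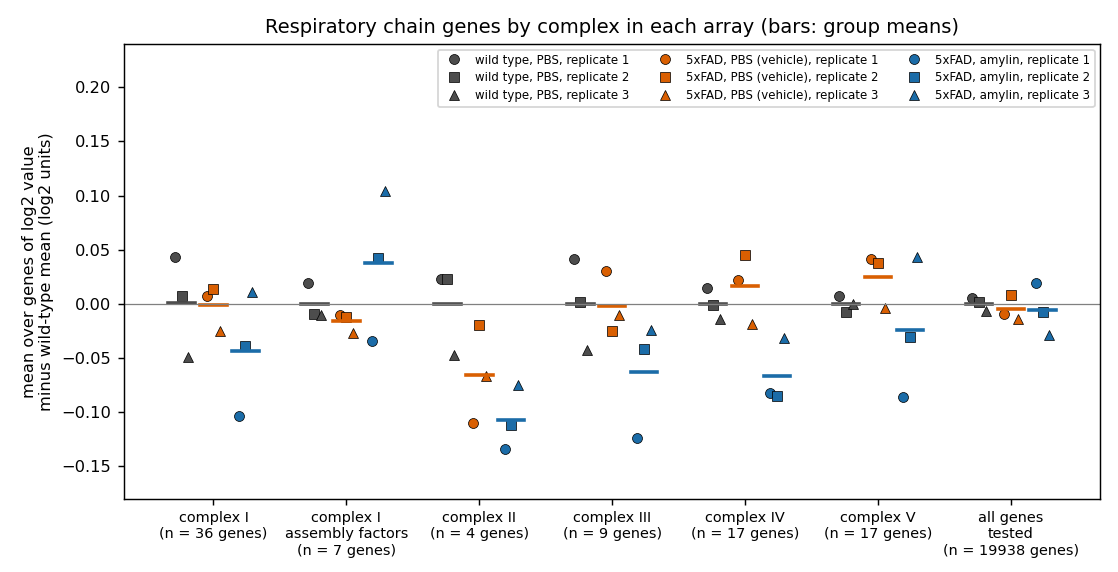
Mean over the genes of each complex of the log2 value minus the wild-type mean (vertical axis, log2 units) in each of the 9 arrays, with replicate numbers as marker shapes, groups as colours and group means as bars. Wild-type and vehicle arrays intermingle in most complexes, while amylin replicate 1 is the lowest array in complexes I, II, III and V, at -0.104, -0.134, -0.124 and -0.086.

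Complex II showed the largest fall among the 90 genes. Sdha, the flavoprotein that oxidises succinate, gave 10.85, 10.80 and 10.75 in the 3 wild-type arrays, 10.58, 10.55 and 10.55 in the vehicle arrays and 10.60, 10.66 and 10.62 in the amylin arrays. Every vehicle array lay below every wild-type array, with no more than 0.03 between the vehicle arrays, and the amylin arrays lay between the other groups. The vehicle difference was -0.24 ± 0.05 log2 (SE, n = 3 per group), 0.847-fold of wild type (limma adjusted p = 0.0125). Leaving out wild-type replicate 1 took the adjusted p of Sdha to 0.0542, and without any other array it stayed under 0.05. The other subunits were not called: Sdhb, the iron-sulfur subunit, differed by 0.03 ± 0.05, and the membrane anchors Sdhc and Sdhd by -0.11 ± 0.09 and 0.07 ± 0.09. Sdhc held 1 low vehicle array (9.50, 9.75 and 9.78, against 9.79, 9.83 and 9.76 in wild type), and its difference turned to 0.02 with the level of olfactory bulb markers in the model.

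Complex V held the largest rise. Atp5g2, 1 of the 3 genes for the c subunit of the proton-conducting ring, gave 10.04, 10.11 and 10.14 in wild-type, 10.50, 10.43 and 10.35 in vehicle and 10.20, 10.34 and 10.27 in amylin arrays. No vehicle array overlapped wild type, and the amylin arrays lay between the 2 other groups, overlapping neither. The vehicle difference was 0.33 ± 0.06 log2, or 1.26-fold (adjusted p = 0.00845), with a 95% interval from 0.20 to 0.46, and it stayed called without each of the 9 arrays (adjusted p between 0.0088 and 0.0417). The Atp5g2 call was lost with olfactory bulb markers in the model (0.33, adjusted p = 0.0519). The 3 probe sets of Atp5g2 gave 0.29, 0.32 and 0.33; whether these probe sets share probes is not known here. The other c-subunit genes, which encode the same mature protein, were not called: Atp5g1 differed by -0.01 ± 0.06 (adjusted p = 0.956) and Atp5g3 by -0.11 ± 0.05 (adjusted p = 0.291). The catalytic subunits of the F1 head, Atp5b (beta) and Atp5a1 (alpha), were each 0.10 lower in vehicle without overlap and were not called (adjusted p = 0.223 and 0.263). Among the 5 F1 genes 4 had lower means (median -0.08), and among the 5 small membrane subunits 4 had higher means (median 0.08). In either group 0 were called by limma (background 8.58%), and 1 had an unadjusted p under 0.05 (background 21.2%), Atp5b. The 4 peripheral stalk genes (Atp5pb, Atp5h, Atp5j and Atp5o) lay between -0.02 and 0.04.

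The promoters of these genes, the largest fall and the largest rise, are shown because both hold the NRF1 motif, the binding motif of a known regulator of respiratory chain genes. The 250 bases before each start site come from RefSeq's GRCm38.p6 annotation, 5′ to 3′ on the gene's strand, with matches to the NRF1 motif (GCGCA, any base, then GCGC) in capitals. Sdha lies on the minus strand at chr13:74350241-74350490, with 3 matches, and Atp5g2 on the minus strand at chr15:102671048-102671297, with 1 match.
Sdha: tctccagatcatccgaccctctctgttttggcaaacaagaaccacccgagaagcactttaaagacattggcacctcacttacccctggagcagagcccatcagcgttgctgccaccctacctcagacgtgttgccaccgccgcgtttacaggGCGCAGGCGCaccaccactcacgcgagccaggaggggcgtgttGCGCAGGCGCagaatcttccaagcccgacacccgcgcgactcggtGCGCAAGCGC
Atp5g2: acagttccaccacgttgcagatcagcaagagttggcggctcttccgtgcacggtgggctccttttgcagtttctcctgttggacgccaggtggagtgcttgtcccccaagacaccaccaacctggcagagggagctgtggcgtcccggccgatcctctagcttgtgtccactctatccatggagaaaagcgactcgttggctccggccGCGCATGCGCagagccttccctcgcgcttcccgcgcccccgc

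The motif is thus found both in the gene that fell most and in the gene that rose most. RefSeq promoters, 300 bases each with 250 before and 50 after the start, were found for 73 of the 90 genes, which have 78 promoters. The NRF1 motif occurred on either strand in 24.4% of them, against 6.94% of the promoters of all genes tested. The GABP motif CCGGAAG occurred in 23.1% against 12.1%, and the YY1 motif AANATGGCG in 12.8% against 3.28%. The ERR motif TCAAGGTCA occurred in 2.56% against 0.298%, but the first share is only 2 of the 78 promoters. Of the other called genes, Uqcrc1 had an NRF1 match only in the 50 bases after its start and Ndufa10 had no match to any of the 4 motifs in its window. The 18 genes with an NRF1 motif had a median vehicle difference of 0.00 log2 and the 55 without one of 0.01, and for amylin against vehicle both medians were -0.04. A match describes these letters and not a binding site in this tissue.

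In complex III 1 gene was called, and the medians of the core and of the small subunits had opposite signs (-0.08 and 0.14). Uqcrc1, a core protein of the complex, gave 9.86, 9.77 and 9.82 in wild-type and 9.61, 9.58 and 9.65 in vehicle arrays, and the groups did not overlap. The difference was -0.20 ± 0.05 log2, or 0.869-fold (adjusted p = 0.0341). This call did not outlast the loss of an array from either group: without any 1 of the 6 wild-type and vehicle arrays the adjusted p of Uqcrc1 lay between 0.054 and 0.126. The Uqcrc1 call was also lost with quantile normalization repeated (-0.17, adjusted p = 0.0625) and with olfactory bulb markers in the model (-0.24, adjusted p = 0.0734). All 4 core and electron-carrying subunits had lower means, with Cyc1 (cytochrome c1) at -0.11 ± 0.08, Uqcrfs1 (the Rieske iron-sulfur protein) at -0.05 ± 0.07 and Uqcrc2 at -0.01 ± 0.06, none of them called. Of the 5 small subunits 4 had higher means: Uqcrq 0.22 ± 0.06 (adjusted p = 0.0757, 0.027 to 0.224 over the alternatives), Uqcr10 0.14 ± 0.05, Uqcr11 0.14 ± 0.09 and Uqcrh 0.05 ± 0.06. Uqcrb was the exception at -0.18 ± 0.06 (adjusted p = 0.132), and its 3 probe sets gave -0.15, -0.18 and -0.18. The division into core and small subunits was drawn up with these values known and is given as a description.

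In complex I the only gene called was Ndufa10, an accessory subunit of the membrane arm. It gave 10.48, 10.50 and 10.50 in wild-type, 10.30, 10.35 and 10.24 in vehicle and 10.49, 10.38 and 10.38 in amylin arrays. Wild type was unusually tight, with an SD of 0.01, vehicle lay below it without overlap, and the first amylin array reached the wild-type range. The vehicle difference was -0.20 ± 0.05 log2, or 0.87-fold (adjusted p = 0.0401). The call of Ndufa10 was lost without any 1 of 7 arrays, namely each wild-type and vehicle array and amylin replicate 2 (adjusted p 0.0511 to 0.131), and with the replicate block (0.0655). The subunits nearest to a call with higher signal were Ndufa3, an accessory subunit, at 0.19 ± 0.05 (adjusted p = 0.051, 0.0178 to 0.27 over the alternatives) and Ndufs4, an accessory subunit whose loss in mice causes a Leigh-like encephalopathy, at 0.22 ± 0.07 (adjusted p = 0.0803, 0.0435 to 0.318). With quantile normalization repeated, Ndufa3, Ndufs4 and Uqcrq passed (adjusted p = 0.0178, 0.0459 and 0.042). Ndufs4 gave 9.23, 9.40 and 9.25 in wild-type and 9.50, 9.51 and 9.53 in vehicle arrays, without overlap. The 6 measured core subunits of the matrix arm, which takes electrons from NADH, lay between -0.11 (Ndufs3) and 0.08 (Ndufs8) with a median of -0.03, and the 28 accessory subunits between -0.20 and 0.22 with a median of 0.02. Ndufab1, the mitochondrial acyl carrier protein, differed by -0.07 ± 0.06, and Ndufa4, which is now assigned to complex IV, by -0.02 ± 0.05.

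Of the 7 complex I assembly factors in vehicle mice 0 were called by limma (background 8.58%). An unadjusted p under 0.05 (background 21.2%) was found for 1. That was Ndufaf4, at 7.54, 7.70 and 7.53 in wild-type and 7.77, 7.78 and 7.76 in vehicle arrays, a difference of 0.18 ± 0.06 (adjusted p = 0.0906). The rest lay between -0.11 (Ndufaf2) and 0.03 (Ndufaf6).

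Complex IV had 0 of 17 genes called by limma in vehicle mice (background 8.58%). At an unadjusted p under 0.05 (background 21.2%) it had 1, Cox8a, the smallest nuclear subunit, at 0.17 ± 0.07 (adjusted p = 0.21). Cox6a1, the isoform of subunit VIa found in most tissues, differed by 0.11 ± 0.05 and did not overlap wild type. Cox4i1, the common isoform of subunit IV, differed by -0.07 ± 0.07, Cox7a2 by 0.03 ± 0.07, and Cox7a2l, which helps join complexes III and IV into supercomplexes, by 0.13 ± 0.09 on one probe set and 0.03 on its other. The isoforms known from heart and skeletal muscle were measured too, with Cox7a1 at -0.10 ± 0.07, Cox8b at 0.11 ± 0.08 and Cox6a2 at 0.01 ± 0.12. Of the 8 genes of the 90 whose mean signal lay in the lower 50% of all genes, 6 were tissue isoforms of complex IV, and their small differences are the least certain.

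**Figure D2:**
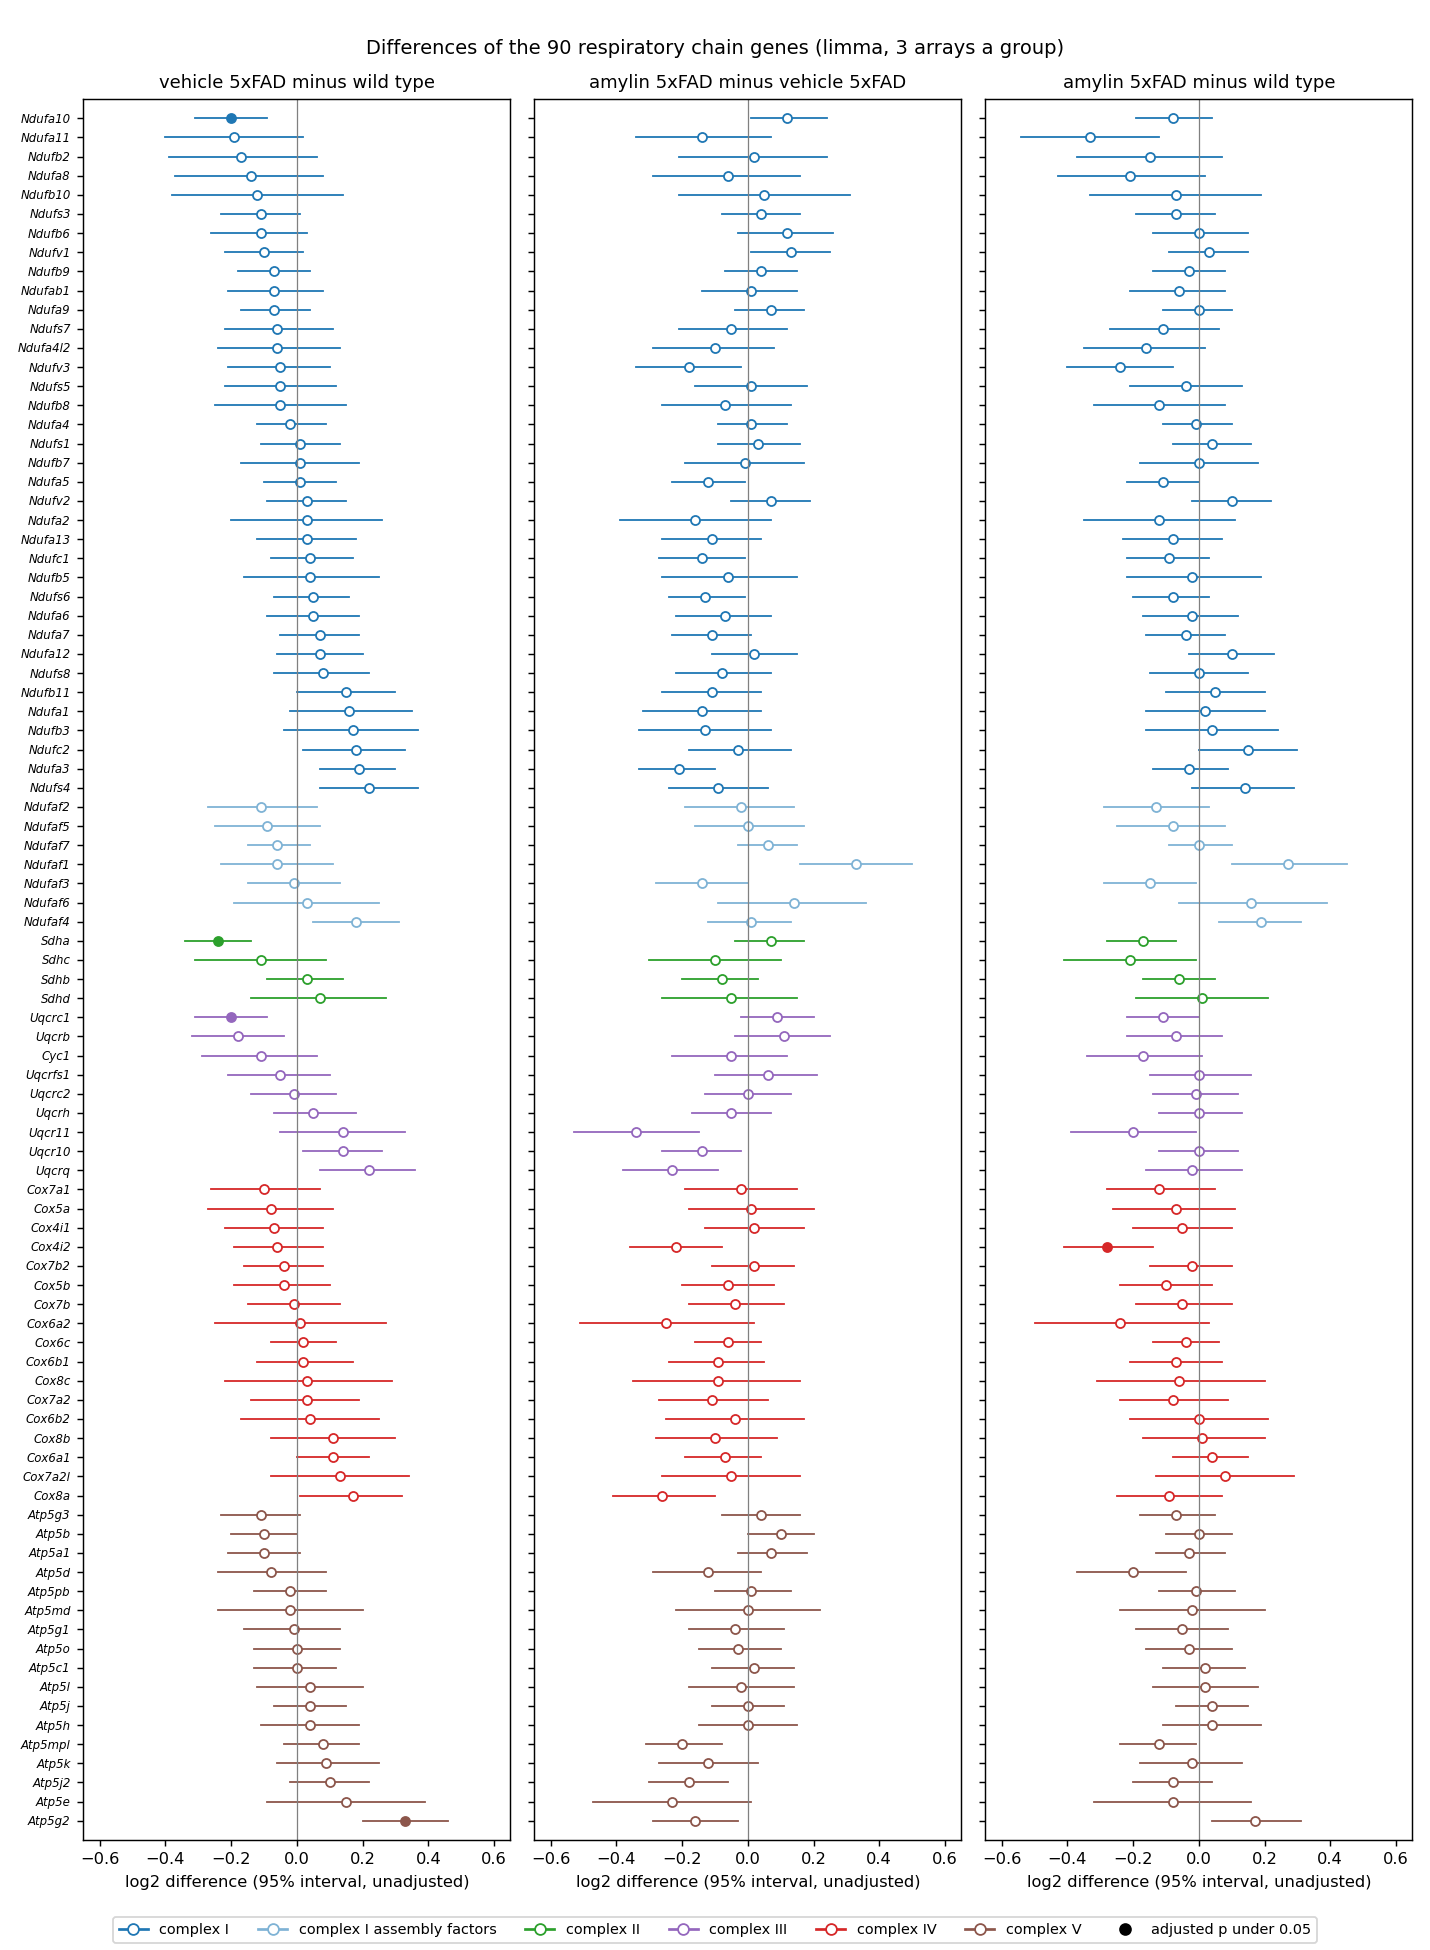
Log2 difference (horizontal axis) with its unadjusted 95% interval for each of the 90 genes in the 3 comparisons, coloured by complex and ordered by the vehicle difference within a complex; filled points passed an adjusted p of 0.05. The filled points are Ndufa10, Sdha, Uqcrc1 and Atp5g2 in the vehicle comparison and Cox4i2 in amylin against wild type, and every interval lies within 1.5-fold.

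Between amylin and vehicle, 0 of the 90 genes were called by limma (background 0.00502%, 1 gene of 19938). Without adjustment, 17 genes had a p under 0.05 (18.9%, against 6.9% of all genes), of which 13 were lower under amylin (14.4%, against 3.18%) and 4 higher (4.44%, against 3.72%). Mean signals were lower under amylin for 57 genes (63.3%, against 49.6%), and the median difference was -0.05 log2 against 0.00 for all genes. The count of lower genes depended on single arrays: it was 8 without amylin replicate 1 (background 5.53%), 20 without amylin replicate 3 (2.97%), and 9 each without amylin replicate 2, vehicle replicate 1 or vehicle replicate 2 (3.72%, 4% and 2.26%). The median was -0.02 without amylin replicate 1 and -0.08 without amylin replicate 3. Markers of other cells were also lower under amylin, none of them called: all 11 microglia markers had lower means (median -0.25, 3 at an unadjusted p under 0.05), and so did 7 of 9 oligodendrocyte markers (median -0.17, 3 at an unadjusted p under 0.05), with Opalin at -0.77 ± 0.12. Of 12 pan-neuronal markers 11 had higher means (median 0.06). Their part in the lower values of the respiratory chain genes was not tested. All 90 intervals again lay within 1.5-fold.

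The arrays of the 2 groups did not overlap for 21 of the 90 genes (23.3%, against 9.3% of all genes). Under amylin 14 of these were lower (15.6%, against 3.81%), by 0.06 to 0.34 log2. They were Ndufa3, Ndufa5, Ndufa7, Ndufs6 and the assembly factor Ndufaf3 of complex I, the small complex III subunits Uqcr10, Uqcr11 and Uqcrq, the complex IV genes Cox4i2, Cox6c and Cox8a, and the complex V membrane subunits Atp5g2, Atp5j2 and Atp5mpl. The other 7 were higher (7.78%, against 5.49%), by 0.06 to 0.33 log2, namely Ndufa10, Ndufv1 (the NADH-binding core subunit), the assembly factors Ndufaf1 and Ndufaf7, Sdha, Uqcrc1 and Atp5b. Both comparisons share the vehicle arrays, so an array value that is high or low by chance in vehicle moves both, and the values are only set side by side: of the 14 lower genes 12 had a vehicle mean above wild type, and of the 7 higher genes 6 had vehicle arrays entirely below wild type. With respect to wild type, 8 of the 14 overlapped it under amylin, 5 lay below it and 1 (Atp5g2) above it. These counts against wild type were not made over all genes. They are therefore not read as a trait of the respiratory chain.

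The gene with the smallest p was Ndufaf1, a chaperone for the membrane arm of complex I. It gave 7.50, 7.70 and 7.46 in vehicle, 7.91, 7.77 and 7.96 in amylin and 7.66, 7.54 and 7.63 in wild-type arrays. The amylin arrays were the 3 highest of the 9. The difference from vehicle was 0.33 ± 0.08 log2, or 1.26-fold, and was not called (adjusted p = 0.559, 0.341 to 0.924 over the alternatives). Of the other assembly factors, Ndufaf7 differed by 0.06 ± 0.04 and Ndufaf3 by -0.14 ± 0.06, both without overlap, and Ndufaf4 stayed at 7.78, 7.73 and 7.82 under amylin, where vehicle had 7.77, 7.78 and 7.76.

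Among the genes with lower values under amylin, Uqcr11, a small membrane subunit of complex III, gave 8.61, 8.39 and 8.56 in vehicle and 8.10, 8.28 and 8.17 in amylin arrays, a difference of -0.34 ± 0.09 (adjusted p = 0.574), and its second probe set gave -0.17 ± 0.07. Cox8a gave 10.63, 10.67 and 10.42 in vehicle and 10.25, 10.36 and 10.33 in amylin arrays, a difference of -0.26 ± 0.07 (adjusted p = 0.634), and its amylin arrays overlapped wild type at 10.35, 10.42 and 10.45. Ndufa3 gave 9.95, 9.91 and 9.85 in vehicle, 9.63, 9.67 and 9.75 in amylin and 9.68, 9.72 and 9.73 in wild-type arrays, a difference from vehicle of -0.21 ± 0.05 (adjusted p = 0.569). Its vehicle arrays were thus the 3 highest, and amylin and wild type lay in the same range. Atp5mpl, a small proteolipid of ATP synthase, was at 10.02, 10.03 and 10.03 under amylin, below all vehicle and wild-type arrays, with a difference from vehicle of -0.20 ± 0.05 (adjusted p = 0.574).

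By role, the medians for amylin against vehicle were -0.14 log2 for the 5 small subunits of complex III and -0.12 for the 5 small membrane subunits of complex V, against 0.03 for the 4 core subunits of complex III, 0.02 for the 5 F1 subunits and 0.04 for the 6 core subunits of complex I. The 28 accessory subunits of complex I had a median of -0.07, the 9 general subunits of complex IV -0.06 and its 7 tissue isoforms -0.09. By complex, the medians were -0.06 for complex I, 0.01 for its assembly factors, -0.07 for complex II, -0.05 for complex III, -0.06 for complex IV and -0.02 for complex V. Leaving out vehicle replicate 1 took the complex III median to -0.010, leaving out vehicle replicate 2 took it to -0.079, and that of complex V turned to 0.016 without amylin replicate 1. In complex IV the means over genes were 0.022, 0.045 and -0.019 in vehicle arrays and -0.082, -0.085 and -0.032 in amylin arrays, without overlap. In complex V the amylin arrays ran from -0.086 to 0.043 and spanned the vehicle arrays. Medians and means over genes carry no test.

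**Figure D3:**
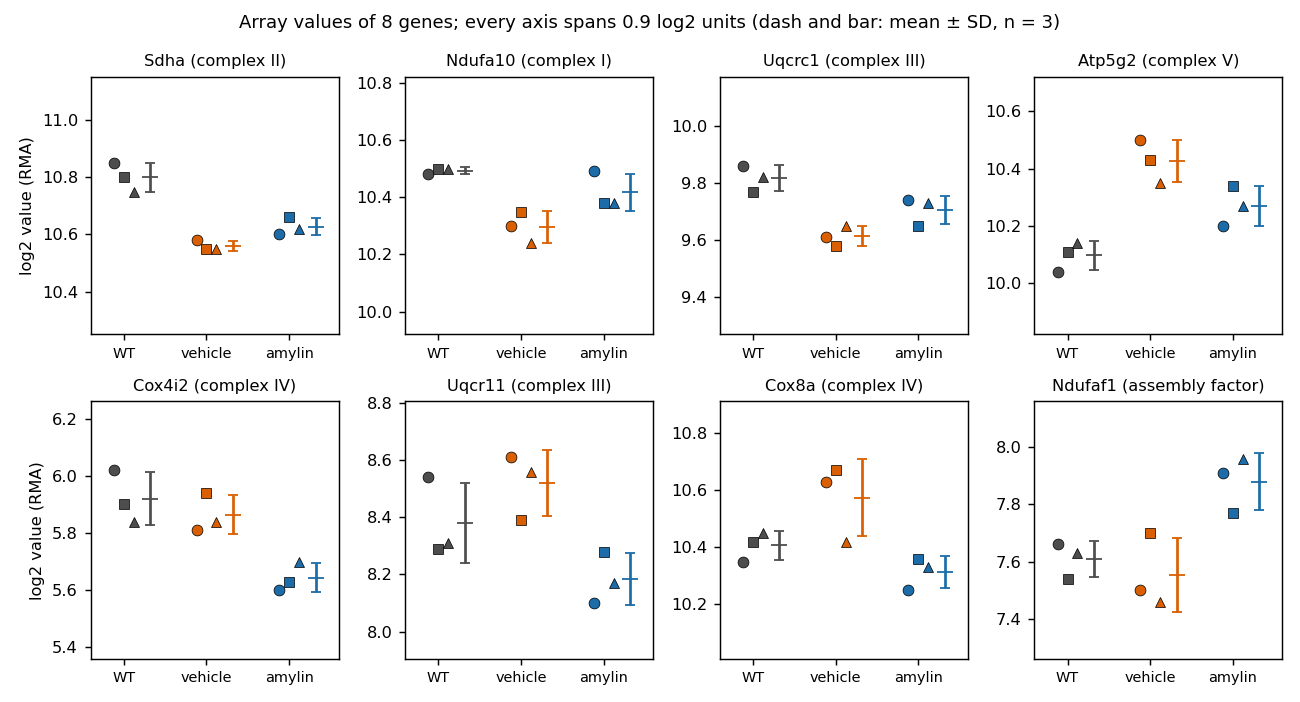
Log2 values of 8 genes in the 9 arrays, with replicates as marker shapes as above and mean ± SD (n = 3) beside them; each vertical axis spans 0.9 log2 units, and levels are not compared between genes. Sdha, Ndufa10 and Uqcrc1 have their lowest group in vehicle, Atp5g2, Uqcr11 and Cox8a their highest, Cox4i2 is lowest and Ndufaf1 highest under amylin.

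The 3 amylin arrays differed from each other in the mean over all 90 genes. Replicate 1 was the lowest of the 3 amylin arrays for 61 of the 90 genes, and replicate 3 was the highest for 52. Over all 90 genes the means were -0.094, -0.043 and 0.009, against 0.019, -0.008 and -0.029 over all genes tested, so the order of the arrays was reversed. This order did not hold for each group: complex IV was at -0.082, -0.085 and -0.032, its tissue isoforms at -0.021, -0.133 and -0.144, and the c-ring genes at 0.039, 0.008 and 0.014. The spread was smaller among wild-type arrays (0.028, 0.002 and -0.029) and vehicle arrays (0.012, 0.017 and -0.02). Replicate 3 was the lowest wild-type array for 44 genes and the lowest vehicle array for 47. Amylin replicate 1 was also the lowest of the 9 arrays for thalamic markers (-1.30). Replicates 2 and 3 of amylin lay at -0.63 and -1.24, so replicate 3 was close to replicate 1. For oligodendrocyte markers replicate 1 was again the lowest of the 9 arrays (-0.49, against -0.33 in both other amylin arrays). The part of both marker lists in the amylin differences was not tested.

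Against wild type, amylin-treated mice had 1 of the 90 genes called (1.11%, against 5.21% of all genes), 0 higher (background 2.35%) and 1 lower (background 2.86%). At an unadjusted p under 0.05 there were 13 genes (14.4%, against 19.2%). Means were lower than in wild type for 63 genes (70%, against 54.1%), and the arrays did not overlap for 16 (17.8%, against 23.1%), 3 higher (background 10.8%) and 13 lower (background 12.3%). The median difference was -0.04 log2, against -0.01 for all genes, and it was -0.011 without amylin replicate 1 and -0.062 without amylin replicate 3. It was -0.11 for complex II, where the amylin arrays lay at -0.134, -0.112 and -0.075, all below the wild-type arrays, and -0.06 for complex IV. The wild-type arrays here are those of the vehicle comparison.

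The gene called was Cox4i2, the isoform of cytochrome oxidase subunit IV that replaces Cox4i1 in lung and under low oxygen and is enriched in brain pericytes. It gave 6.02, 5.90 and 5.84 in wild-type, 5.81, 5.94 and 5.84 in vehicle and 5.60, 5.63 and 5.70 in amylin arrays. The amylin arrays were the 3 lowest, and wild type and vehicle overlapped. The difference from wild type was -0.28 ± 0.06 log2, or 0.826-fold (adjusted p = 0.0316), and that from vehicle -0.22 ± 0.06 (adjusted p = 0.634). The signal of Cox4i2 lay in the lower 50% of genes, and the call was lost without any 1 of 6 arrays, namely wild-type replicates 1 and 2, each amylin array and vehicle replicate 3 (adjusted p 0.0543 to 0.121). The adjusted p of Cox4i2 was 0.0604 with the replicate block, 0.0603 in a fit of the 2 groups compared and 0.30 with the level of olfactory bulb markers in the model. Of 9 measured endothelial and pericyte markers 8 had higher means than wild type (median 0.18 log2), and 1 was called higher (background 2.35%). The pericyte markers Pdgfrb and Rgs5 among them differed by -0.03 ± 0.10 and 0.05 ± 0.09. Cox4i1 differed by -0.05 ± 0.07.

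Several genes lay just outside the threshold. Sdha, at -0.17 ± 0.05 (adjusted p = 0.0683, 0.0333 to 0.364 over the alternatives), remained below every wild-type array. Ndufaf1 differed by 0.27 ± 0.08 (adjusted p = 0.0749), Ndufa11 differed by -0.33 ± 0.09 (adjusted p = 0.0842), Ndufaf4 by 0.19 ± 0.06 (adjusted p = 0.0967) and Ndufv3 by -0.24 ± 0.07 (adjusted p = 0.0973). Ndufa11, a membrane-arm subunit, had 1 high wild-type array (9.85, 9.64 and 9.55, against 9.32, 9.48 and 9.26 under amylin). Sdhc differed by -0.21 ± 0.09 without overlap (adjusted p = 0.232). Atp5g2 kept a difference of 0.17 ± 0.06 (adjusted p = 0.133), and Uqcrc1 and Ndufa10 differed by -0.11 ± 0.05 and -0.08 ± 0.05. Cox6a2, a muscle isoform that parvalbumin interneurons also express, was at 7.12, 6.71 and 6.67 under amylin against 7.07, 7.25 and 6.93 in vehicle (-0.25 ± 0.12, adjusted p = 0.736). Of 8 inhibitory neuron markers 0 were called between amylin and vehicle by limma (background 0.00502%). At an unadjusted p under 0.05 (background 6.9%) there was 1, Pvalb, at -0.40 ± 0.14 (adjusted p = 0.687). The list as a whole had 6 higher and 2 lower means under amylin (median 0.10), with Gad2 at 0.30 ± 0.14. Their part in the Cox6a2 value was not tested.

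Other mitochondrial genes gave a frame for these values. Of all genes, 3.66% were called higher and 4.92% lower in vehicle mice, and 9.11% and 12.1% at an unadjusted p under 0.05. In amylin mice against wild type, 2.35% of all genes were called higher and 2.86% lower. Of 18 citric acid cycle and pyruvate dehydrogenase genes, 5 fell in vehicle mice and 0 rose by limma (2 were higher at an unadjusted p under 0.05). Pcx, which makes oxaloacetate from pyruvate, fell by 0.31 ± 0.06, Ogdh of the 2-oxoglutarate dehydrogenase complex by 0.25 ± 0.05 and Cs (citrate synthase) by 0.25 ± 0.05, with Idh3b and Dlat at -0.20 and -0.22. In amylin mice Ogdh and Pcx were called lower against wild type. The list did not include Sdha, which fell by 0.24 in vehicle mice against wild type. Of 38 measured respiratory chain assembly factors outside the symbol rule, Cox11 and Cox15, both needed to build complex IV, fell in vehicle mice by 0.25 ± 0.05 and 0.36 ± 0.08, and Cox20 rose by 0.30 ± 0.07. Of 22 electron carrier and ADP/ATP exchange genes 0 were called by limma and 2 had an unadjusted p under 0.05, both lower.

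Among 15 regulators of mitochondrial biogenesis, Nfe2l2, which drives antioxidant genes, rose in vehicle mice by 0.65 ± 0.08 (adjusted p = 0.00157) and Esrra, the nuclear receptor that binds the ERR motif, fell by 0.26 ± 0.06 (adjusted p = 0.0255). Ppargc1a, the coactivator PGC-1 alpha, differed by -0.10 ± 0.07 (adjusted p = 0.514). Against wild type, amylin mice had Nfe2l2 at 0.58 ± 0.08 and Esrra at -0.26 ± 0.06, both called, and Gabpb1, a subunit of GABP, rose by 0.21 ± 0.05 (adjusted p = 0.0429). Mfn2, which fuses mitochondrial outer membranes, was the 1 gene of 21 import and dynamics genes called in vehicle mice, with a fall of 0.38 ± 0.07. Gpx1, a glutathione peroxidase, was the 1 gene of 12 redox genes called, with a rise of 0.40 ± 0.06. Of the 13 mitochondrially encoded subunits 1 was matched, COX2 of complex IV, which differed by -0.01 ± 0.09 in vehicle. Between amylin and vehicle 0 genes of these lists were called by limma. At an unadjusted p under 0.05 (3.72% of all genes higher and 3.18% lower), the assembly factors outside the rule had 4 higher and 4 lower genes. The other lists had 0 lower: 3 citric acid cycle genes, 2 import and dynamics genes, and 1 gene each of the electron carriers, redox genes and biogenesis regulators were higher.

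**Figure D4:**
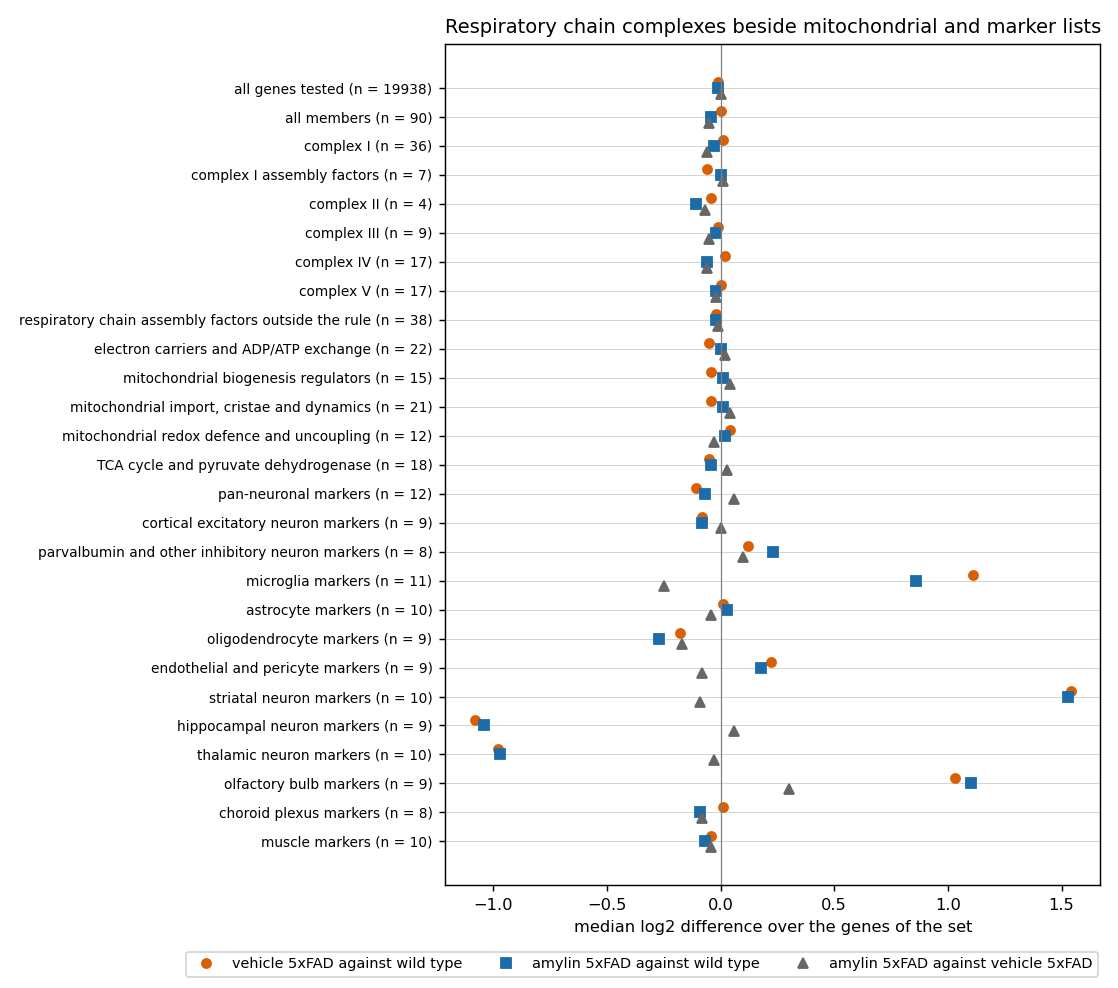
Median log2 difference (horizontal axis) over the genes of each complex and of the other lists, for vehicle against wild type (circles), amylin against wild type (squares) and amylin against vehicle (triangles). The complexes lie between -0.11 and 0.02, while the microglia, striatal, hippocampal, thalamic and olfactory bulb lists reach 1.11, 1.54, -1.08, -0.98 and 1.03 in vehicle mice.

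Markers of neurons and of other cell types moved beside these results. The shares of all genes called lower were 4.92% in vehicle and 2.86% in amylin mice against wild type. In vehicle mice 3.66% of all genes were called higher, and 9.11% were higher at an unadjusted p under 0.05. Of 12 pan-neuronal markers 5 fell in vehicle mice (median -0.11 log2, against 0.00 for the 90 genes), with list means between -0.17 and -0.16 in vehicle, -0.03 and 0.02 in wild-type and -0.16 and -0.06 in amylin arrays. Of 9 hippocampal markers 7 fell in vehicle mice (median -1.08). Of 9 oligodendrocyte markers 2 fell in vehicle and 6 in amylin mice against wild type (medians -0.18 and -0.27). The 9 olfactory bulb markers had 0 called in vehicle by limma and 6 higher at an unadjusted p under 0.05, and their list means varied within groups, from 0.28 to 1.85 in vehicle and 0.56 to 1.75 in amylin arrays. With that mean in the model 0 of the 90 genes were called in the vehicle comparison, with Atp5g2 still at 0.33 (adjusted p = 0.0519) and Sdha at -0.24 (adjusted p = 0.0747). The part of the other lists in the respiratory chain differences was not tested.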

How the data were processed

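The authors deposited log2 expression values, made by RMA in the oligo package per the submitters' processing notes, which give no versions here. RMA corrects background, quantile-normalizes the arrays and summarises probes to probe sets, so that a shift shared by most genes is removed. Of 35556 probe sets, 21789 named 1 gene, 1621 several and 12146 none; genes were named from the platform annotation, 21698 Entrez identifiers matched RefSeq (GRCm38.p6) and 0 symbols changed. For each gene the probe set with the greatest average signal was kept. Group means of the 9 arrays were fitted in limma 3.58.1 (R 4.3.3; lmFit and eBayes, 6 residual and 3.53 prior degrees of freedom), with Benjamini-Hochberg adjustment over 19938 genes and an adjusted p under 0.05 as the threshold. No filter on low signal was applied. Every adjusted p in the text comes from limma, and the scripts were tested on simulated data.

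Genes named were those called, the 3 with the smallest p per complex where fewer were called, the 5 with the smallest p for amylin against vehicle, all Sdh genes, the isoform sets and, from other lists, at most 3 genes called per list; Idh3b, Dlat and others outside this rule, the role groups and the genes without overlap were named after their values were seen. The members and lists were chosen with earlier results of these data known. Alternatives varied the normalization, filter, prior, arrays fitted, array weights, replicate block, probe sets, a regional marker term, the threshold and each array. Replicate numbers were not taken to pair samples, since the correlations of same-numbered deviations lay between -0.0556 and 0.1834.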

Additional observations from a re-analysis of the deposited data

How the results depend on the processing

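For vehicle against wild type, the count of respiratory chain genes called higher (1) became 4 with quantile normalization repeated and with array weights, 2 without the lowest 25% of genes or with a trended robust prior, 5 without the lowest 50% of genes or at an adjusted p under 0.1, and 0 with the olfactory bulb marker level in the model. The count called lower (3) became 1 with quantile normalization and 0 with the olfactory bulb term. Leaving out 1 array gave 1 to 3 higher and 0 to 3 lower. The median of all 90 genes became 0.035 with quantile normalization, with -0.042 for the assembly factors, 0.056 for complex III and 0.057 for complex V; it became -0.008 for complex IV with array weights and 0.013 for complex II with the olfactory bulb term, which also turned Sdhc to 0.02. Without 1 array, the medians ran from -0.032 to 0.028 for complex I, -0.061 to -0.009 for its assembly factors, -0.009 to 0.023 for complex IV and -0.002 to 0.034 for complex V.

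For amylin against vehicle, 0 genes were called under each of the 20 alternatives. Without 1 array, medians ran from -0.015 to 0.061 for assembly factors, -0.081 to -0.018 for complex II, -0.079 to -0.010 for complex III, -0.099 to -0.037 for complex IV and -0.078 to 0.016 for complex V, with -0.089 to -0.042 for complex I and -0.081 to -0.023 for all 90 genes.

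For amylin against wild type, the count called higher (0) became 1 without the lowest 50% of genes and 2 at an adjusted p under 0.1. The count called lower (1) became 2 without the lowest 50% of genes, with the trended robust prior and with array weights, 4 at an adjusted p under 0.1, and 0 in a fit of the 2 groups compared and with the olfactory bulb term. The olfactory bulb term gave medians of -0.061 for complex II and -0.073 for complex III. Leaving out 1 array gave 0 to 1 higher and 0 to 1 lower, and medians from -0.062 to -0.011 for all 90 genes, -0.069 to -0.009 for complex I, -0.134 to -0.098 for complex II, -0.065 to -0.017 for complex III, -0.096 to -0.044 for complex IV and -0.055 to 0.014 for complex V. The complex V median was also above 0, at 0.008, with quantile normalization repeated. The filter that left out the lowest 50% of genes also left out Cox4i2. The cause of these changes was not tested.

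With the replicate block, the count called lower for amylin against wild type was 0 (Cox4i2, limma adjusted p = 0.0604), Ndufa10 in vehicle mice was no longer called (0.0655), and no other call of the 90 genes changed. Leaving out the assembly factors and the tissue isoforms, an alternative chosen after seeing the data, gave medians of 0.008 for vehicle against wild type and -0.051 for amylin against vehicle. The counts at an unadjusted p with each array left out were also added then. With 3 arrays per group, differences under about the size of the intervals shown could not be detected.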
